A study of Mus musculus with 12 samples.

Results

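The genes described here are known for returning in the adult heart when its wall is under load: the natriuretic peptide genes Nppa and Nppb, the sarcomere genes Myh7 and Acta1, the ankyrin repeat genes Ankrd1 and Ankrd2, the actin-binding protein gene Abra and the intercalated disc gene Xirp2. A probe set was taken as a member where the annotation of the array names one of these symbols and no other gene. Of the 8 listed genes, 7 had such a probe set, and these 7 genes held 8 of the 45037 probe sets in the table because Ankrd1 had 2. No probe set carried the symbol Xirp2, so this gene was not analysed here. For Ankrd1 the probe set with the higher mean over the 12 arrays was used as the main one.

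The arrays measured total RNA of whole hearts from male C57BL/6J mice that were 8 to 10 weeks old by their labels. There were 3 arrays, called biological replicates by the labels, in each of 4 groups. The knockout-labelled DOX hearts and the WT DOX hearts were taken 5 days after 1 dose of doxorubicin (DOX, an anthracycline chemotherapy drug that is toxic to the heart) at 15 mg/kg. The knockout-labelled untreated hearts and the WT untreated hearts had no DOX. The labels call the altered genotype a knockout of CHIP, the ubiquitin ligase and cochaperone encoded by Stub1, whereas the methods of the paper describe a transgene that expresses CHIP in the heart, along with a higher dose, an older age and saline for the mice without DOX. The promoter of that transgene and any pooling of hearts are not given in the sources used here.

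ANP and BNP, the peptides made from Nppa and Nppb, are hormones that cardiomyocytes release when they are stretched and that promote salt loss and widen vessels. The ventricle of the mouse fetus uses beta-myosin, from Myh7, and much skeletal alpha-actin, from Acta1, and the adult ventricle replaces them largely with alpha-myosin, from Myh6, and cardiac alpha-actin, from Actc1; load can bring the fetal forms back. Ankrd1 and Ankrd2 encode proteins that bind titin, the elastic filament of the sarcomere, while Abra encodes an actin-binding protein that sends coactivators of serum response factor into the nucleus, and Xirp2 encodes an actin-binding repeat protein of the intercalated disc.

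Nppa, Nppb, Myh7 and Acta1 stand for the peptides and the sarcomere proteins of the fetal program. The order of their group means differed in these hearts. For these reasons the stretches before their annotated starts are shown. They come from RefSeq on the build GRCm38.p6, which held a promoter window for 7 of the 8 listed genes and none for Abra. Each line gives 250 bases, 5′ to 3′ on the strand of the gene, up to the base before the start. Capitals mark letters that match 1 of 5 motifs searched on both strands: TATAAA, the MCAT element with the letters CATTCC, the GATA site (these 4 letters after A or T and before A or G), the CArG box bound by serum response factor, and the MEF2 site.
Nppa, chr4:148000472-148000721, plus strand: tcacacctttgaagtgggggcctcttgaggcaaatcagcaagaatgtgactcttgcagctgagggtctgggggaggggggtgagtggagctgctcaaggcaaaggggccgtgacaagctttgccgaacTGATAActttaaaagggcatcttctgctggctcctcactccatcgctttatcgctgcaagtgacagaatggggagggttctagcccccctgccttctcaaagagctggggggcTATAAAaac
Nppb, chr4:147985650-147985899, plus strand: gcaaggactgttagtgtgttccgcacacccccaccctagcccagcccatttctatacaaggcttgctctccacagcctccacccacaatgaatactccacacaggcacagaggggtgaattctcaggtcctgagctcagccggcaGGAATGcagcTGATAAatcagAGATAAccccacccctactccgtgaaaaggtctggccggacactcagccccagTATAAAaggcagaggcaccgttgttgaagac
Myh7, chr14:54994627-54994876, minus strand: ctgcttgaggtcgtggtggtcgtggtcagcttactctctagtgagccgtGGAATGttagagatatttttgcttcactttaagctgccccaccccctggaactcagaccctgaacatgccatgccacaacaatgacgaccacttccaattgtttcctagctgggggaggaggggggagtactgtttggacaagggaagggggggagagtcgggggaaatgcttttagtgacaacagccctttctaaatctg
Acta1, chr8:123894776-123895025, minus strand: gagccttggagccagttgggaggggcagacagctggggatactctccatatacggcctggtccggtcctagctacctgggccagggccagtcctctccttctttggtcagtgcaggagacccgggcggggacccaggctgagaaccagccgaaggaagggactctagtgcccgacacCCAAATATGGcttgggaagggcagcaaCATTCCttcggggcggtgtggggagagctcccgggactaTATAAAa
In these lines Nppa held 1 GATA site and Nppb held 2 GATA sites and 1 MCAT element, while Myh7 held 1 MCAT element and Acta1 held a CArG box and 1 MCAT element. TATAAA was in 3 of the 4 lines and not in that of Myh7, whose first of 2 annotated starts is shown. Over 300 bases (250 before and 50 after the start), a GATA site, an MCAT element and TATAAA were each in 4 of the 7 members with a window, and in 29.8%, 14.7% and 13.6% of all 32851 promoter windows of that length. The CArG box was in 1.6% and the MEF2 site, which among the members only Xirp2 held, in 3.2% of all windows. No matches overlapped, and a match is a description of letters and not of binding.

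Stub1 went against the knockout label. Its brighter probe set averaged 7427 ± 1656 in knockout-labelled DOX and 1941 ± 10.2 in WT DOX hearts, and 9411 ± 568 in knockout-labelled untreated and 1826 ± 33.7 in WT untreated hearts (linear intensity, SD, n = 3 each). It was higher in the knockout-labelled hearts at an adjusted p of 9.9e-04 after DOX and 2.2e-04 without treatment, and its other probe set was not called (adjusted p = 0.74 and 0.94, all from limma). The word knockout-labelled therefore names the label and not a loss of CHIP, and every genotype difference below is knockout-labelled against WT. Array medians lay between 28.9 and 30.4. All 12 cardiomyocyte markers examined averaged above 100. A pair of arrays, picked after seeing the data, is said below to stand apart. WT DOX replicate 2 was the lowest of its group in 5 of 7 genes, and knockout-labelled untreated replicate 3 the highest of its group in 5 of 7. Other arrays came close: WT DOX replicate 1 was the highest of its group in 4 of 7. Knockout-labelled untreated replicate 1 was the lowest of its group in 4 of 7, so these counts alone do not set the pair apart. Knockout-labelled untreated replicate 3 also read higher than every other array for some of the 10 atrial markers examined. Sln, which encodes the atrial calcium pump inhibitor sarcolipin, read 82.9 there and at most 18.6 on every other array. The atrial myosin light chain genes Myl7 and Myl4 read 125.1 and 516 there and at most 37.0 and 116 elsewhere. Not all of the list went this way. In knockout-labelled untreated hearts the group means of Bmp10 and Dkk3 were the highest, and those of Nr2f2, Kcna5, Stard10 and Kcnj3 the lowest. Results are given with and without these arrays where they change.

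Abra was called in the DOX response of WT hearts, where it was 2.85-fold higher in WT DOX than in WT untreated hearts, and no other member was called in any comparison. Myh7 was higher after DOX in both genotypes with no overlap between arrays, by 4.24-fold in knockout-labelled and 2.22-fold in WT hearts, but its adjusted p stayed above 0.05. Nppa was higher in knockout-labelled than in WT hearts with and without DOX, again without overlap and without passing. Nppb, Ankrd1 and Ankrd2 overlapped between the groups in all 4 comparisons, and in Acta1 the SD of the WT DOX arrays exceeded their mean. Since whole hearts were measured, fewer cells of a type and less RNA per cell cannot be told apart.

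A member was called where limma gave an adjusted p under 0.05 (Benjamini-Hochberg over all 45037 probe sets) on log2(intensity + 32). For the DOX response in WT hearts 1 of 7 was called, where 3.06% of all probe sets were. For the DOX response in knockout-labelled hearts limma called 0 of 7, where 2.2% of all probe sets were called. For the genotype difference it called 0 of 7 after DOX, where 0.941% of all probe sets were called, and 0 of 7 without treatment, where 1.81% were. The methods' t-test on the same values put 2 of 7 members under an unadjusted p of 0.05 for the DOX response in knockout-labelled hearts, 1 for that in WT hearts and 1 for each genotype difference, and 0 of 7 in each after Benjamini-Hochberg adjustment. At an unadjusted p under 0.05, limma gave 2 of 7 members for each DOX response, where 18.8% of all probe sets in WT and 16.2% in knockout-labelled hearts lay under it. The same threshold gave 3 of 7 for each genotype difference, where 15.5% of all probe sets after DOX and 14.1% without treatment lay under it. In every one of these 4 comparisons the arrays of the groups did not overlap for 2 of 7 members (28.6%), a share near those over all probe sets: 24.4% for the DOX response in WT and 20.7% in knockout-labelled hearts, and 20.4% after DOX and 19.4% without treatment for the genotype difference. The interaction, the test of a genotype effect on the size of the DOX response, called 0 of 7 members and 0% of all probe sets with limma, and 1 member, Abra, lay under an unadjusted p of 0.05, as 8.69% of all probe sets did. The median log2 fold change of the 7 members was 0.11 for the DOX response in WT and -0.28 in knockout-labelled hearts, and -0.12 after DOX and 0.27 without treatment for the genotype difference, where the median over all probe sets lay between -0.01 and 0.01 in each.

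**Figure D1:**
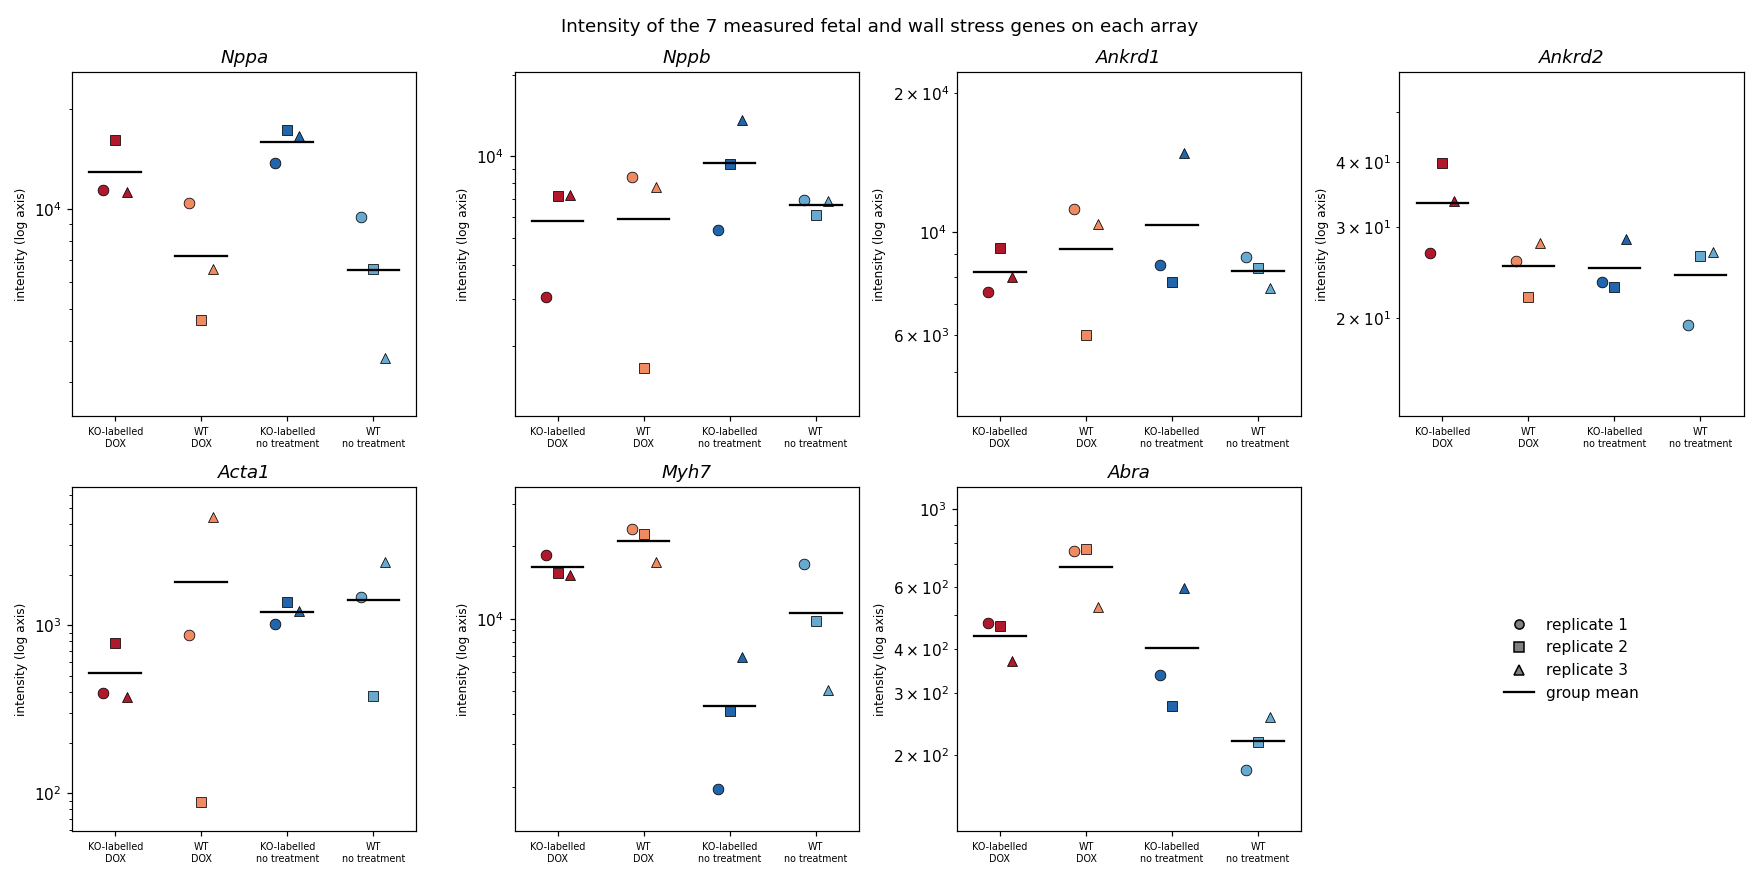
Intensity (linear values on a log axis) of the 7 measured genes on each of the 12 arrays, with 1 panel per gene, groups from left to right knockout-labelled DOX, WT DOX, knockout-labelled untreated and WT untreated, a symbol per replicate number and a line for the group mean. All 3 WT DOX arrays of Abra lie above all 3 WT untreated arrays, while Nppb and Ankrd1 overlap between all groups.

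Nppa read 11399, 16112 and 11268 on the knockout-labelled DOX arrays and 10374, 4608 and 6592 on the WT DOX arrays. It read 13732, 17236 and 16613 on the knockout-labelled untreated arrays and 9428, 6579 and 3556 on the WT untreated arrays. Every knockout-labelled array lay above every WT array, whatever the treatment, while the treatments overlapped within each genotype. The group means were 12926 ± 2759 in knockout-labelled DOX, 7191 ± 2930 in WT DOX, 15860 ± 1869 in knockout-labelled untreated and 6521 ± 2936 in WT untreated hearts (SD, n = 3 each). In order of the means, knockout-labelled untreated hearts stood first, then knockout-labelled DOX, WT DOX and WT untreated hearts, and the step between the genotypes was the one without overlap. The genotype difference was 1.87-fold after DOX (log2 fold change 0.90, SE 0.36, adjusted p = 0.27 from limma) and 2.60-fold without treatment (1.38, SE 0.36, adjusted p = 0.097 from limma). Neither passed the test. The DOX response was -0.31 in knockout-labelled hearts (95% interval -1.12 to 0.50) and 0.17 in WT hearts (-0.64 to 0.98), and the interaction was -0.48 with an adjusted p of 0.82 from limma.

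The genotype difference of Nppa without treatment was nearly as large without knockout-labelled untreated replicate 3 (log2 fold change 1.34, adjusted p = 0.23 from limma). That array was the highest for the atrial markers Sln, Myl7 and Myl4 but not the highest of its group for Nppa. The 10 atrial markers summed to 1530 to 1786 in knockout-labelled DOX, 1661 to 1793 in WT DOX, 1145 to 2024 in knockout-labelled untreated and 1522 to 1711 in WT untreated hearts. These sums overlapped between the genotypes, but most of each sum came from markers other than the atrial light chains. Myl4 read 63.6, 96.6 and 86.1 on the knockout-labelled DOX arrays and 56.4, 32.4 and 57.6 on the WT DOX arrays, and 116, 66.7 and 516 on the knockout-labelled untreated arrays and 51.1, 51.6 and 62.6 on the WT untreated arrays. Like Nppa, Myl4 was thus higher on every knockout-labelled array than on every WT array, at the closest by 63.6 against 62.6. The means of Bmp10 and Dkk3 were also higher in knockout-labelled hearts under both treatments. Those of Nr2f2, Kcna5, Stard10 and Kcnj3 were lower under both. Myl7 was lower on every knockout-labelled DOX array than on every WT DOX array. The part of atrial transcripts in the Nppa values was not tested. With 1 added in place of 32 before the log2 was taken, or with the test restricted to probe sets with a mean of at least 64, the difference passed (adjusted p = 0.046 and 0.026 from limma). As each array was left out, the difference without treatment lay between 1.00 and 1.70 and that after DOX between 0.62 and 1.20. The lowest value after DOX was that without WT DOX replicate 2 (0.62, adjusted p = 0.60 from limma). Within each treatment, fibroblast markers were also higher in knockout-labelled than in WT hearts without overlap: the 8 markers summed to 11965 to 13621 in knockout-labelled DOX and 9567 to 10573 in WT DOX hearts, and to 14980 to 22050 in knockout-labelled untreated and 11137 to 14241 in WT untreated hearts. All 8 were measured, none was at 0, and 1 of 8 was called higher in each genotype difference. Over all probe sets, 0.291% were called higher after DOX and 0.924% without treatment. The 7 macrophage markers summed to 4022 to 4800 in knockout-labelled DOX and 2631 to 3543 in WT DOX hearts, without overlap. Their sums were 4348 to 8750 in knockout-labelled untreated and 4477 to 5796 in WT untreated hearts, with overlap. The part of these markers in the result was not tested.

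Nppb, which lies on the same chromosome and strand as Nppa in the coordinates above, overlapped between the genotypes where Nppa did not. A difference between the 2 genes was not tested. It read 3030, 7141 and 7196 on the knockout-labelled DOX arrays and 8368, 1659 and 7699 on the WT DOX arrays. It read 5350, 9350 and 13658 on the knockout-labelled untreated arrays and 6895, 6112 and 6874 on the WT untreated arrays. The WT untreated arrays lay close together, each DOX group held 1 array far below its others, and the knockout-labelled untreated arrays were spread out, so that all groups overlapped. The means were 5789 ± 2389 in knockout-labelled DOX, 5909 ± 3695 in WT DOX, 9452 ± 4155 in knockout-labelled untreated and 6627 ± 446 in WT untreated hearts (SD, n = 3 each), and no neighbours in their order differed beyond their spread. The genotype difference was 0.18 after DOX (95% interval -1.17 to 1.53) and 0.41 without treatment (-0.94 to 1.76) on the log2 scale, and after DOX its sign is opposite to that of the difference between the linear means. The DOX response was -0.71 in knockout-labelled hearts (-2.06 to 0.64) and -0.47 in WT hearts (-1.83 to 0.88). Each of these intervals reached past a 2-fold difference in at least 1 direction, so the values do not show that the groups were alike. Without WT DOX replicate 2, the DOX response in WT hearts turned to 0.28 and the genotype difference after DOX to -0.57, with adjusted p-values of 0.86 and 0.70 from limma.

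Myh7 read 18483, 15565 and 15256 on the knockout-labelled DOX arrays and 23550, 22646 and 17287 on the WT DOX arrays. It read 1954, 4130 and 6962 on the knockout-labelled untreated arrays and 16877, 9825 and 5051 on the WT untreated arrays. The DOX arrays lay above the untreated arrays in both genotypes, and the genotypes overlapped under each treatment. Means were 16435 ± 1780 in knockout-labelled DOX, 21161 ± 3385 in WT DOX, 4349 ± 2511 in knockout-labelled untreated and 10584 ± 5949 in WT untreated hearts (SD, n = 3 each). The order of the means ran from WT DOX through knockout-labelled DOX and WT untreated to knockout-labelled untreated hearts, and each neighbouring pair overlapped. In knockout-labelled hearts DOX gave a log2 fold change of 2.08 (SE 0.48, adjusted p = 0.058 from limma), and in WT hearts 1.15 (SE 0.48, adjusted p = 0.23 from limma). The genotype difference was -0.36 after DOX (adjusted p = 0.78 from limma) and -1.29 without treatment (adjusted p = 0.24 from limma), and the interaction was 0.93 (SE 0.68, adjusted p = 0.72 from limma). The highest Myh7 value, 23550, lay under the highest of the table, 27119. This does not show that fold changes between values this high were free of a ceiling of the signal.

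The DOX response of Myh7 in knockout-labelled hearts lay close to the threshold, and the setting decided the side. It passed with 1 added before the log2, with probe sets of a mean of at least 64, and with 1 value per gene (adjusted p = 0.022, 0.014 and 0.039 from limma). It also passed without knockout-labelled untreated replicate 3, where the log2 fold change was 2.51 (adjusted p = 0.040 from limma), and without WT untreated replicate 1 or 3 (adjusted p = 0.0493 and 0.0495), while without both arrays that stood apart the adjusted p was 0.051. In WT hearts the response ranged from 0.70 without WT untreated replicate 3 to 1.57 without WT untreated replicate 1, and it passed in neither case (adjusted p = 0.55 and 0.12 from limma). A further 2 probe sets name both Myh7 and Myh6, whose sequences are alike, and were not used. The 12 cardiomyocyte markers summed to 159183 to 170133 in knockout-labelled DOX, 153793 to 182193 in WT DOX, 164581 to 178753 in knockout-labelled untreated and 181895 to 189270 in WT untreated hearts. The median sums were not higher after DOX, where Myh7 was. In both genotypes the fibroblast marker sums given beside Nppa were lower after DOX without overlap between arrays. The sums of the 3 of 6 erythroid markers measured were lower as well. They were 40.4 to 51.0 in knockout-labelled DOX against 85.0 to 345 in knockout-labelled untreated hearts. In WT hearts they were 35.6 to 56.3 with DOX against 212 to 1160 without. Alas2 weighed most in the untreated sums, averaging 564 in WT untreated and 22.0 in WT DOX hearts. Hba-a1 read between 7.93 and 9.87 on all arrays, below every array median. The macrophage sums given beside Nppa were lower after DOX without overlap in WT hearts and overlapped in knockout-labelled hearts. The part of these sums in the Myh7 values was not tested.

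Acta1 had the widest spread of the members. It read 396, 785 and 373 on the knockout-labelled DOX arrays and 879, 88.6 and 4431 on the WT DOX arrays. It read 1011, 1377 and 1214 on the knockout-labelled untreated arrays and 1479, 380 and 2393 on the WT untreated arrays. The highest and the lowest array were both WT DOX, and the knockout-labelled DOX arrays all lay below the knockout-labelled untreated ones. The means were 518 ± 232 in knockout-labelled DOX, 1800 ± 2313 in WT DOX, 1201 ± 183 in knockout-labelled untreated and 1417 ± 1008 in WT untreated hearts (SD, n = 3 each). The SD of WT DOX hearts was 129% of their mean, and the order of the means had overlap between all neighbours but knockout-labelled untreated and knockout-labelled DOX hearts. For the DOX response in knockout-labelled hearts the log2 fold change was -1.23 (SE 1.11, adjusted p = 0.68 from limma), and no other comparison of Acta1 came closer to the threshold. In WT hearts the DOX response was -0.54 on the log2 scale, opposite in sign to the difference between the linear means, and it turned to 0.81 without WT DOX replicate 2 (adjusted p = 0.75 from limma).

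Acta1 is also the main actin of skeletal muscle, so markers of that tissue were set beside it. Of 13 skeletal muscle markers 8 averaged under 32 and 1 over 100. Their sum was 400 to 462 in knockout-labelled DOX, 326 to 571 in WT DOX, 389 to 446 in knockout-labelled untreated and 371 to 383 in WT untreated hearts. WT DOX replicate 2 had the lowest sum and the lowest Acta1 value, whereas the highest sum was on WT DOX replicate 1 and the highest Acta1 value on WT DOX replicate 3. The marker over 100 was Mybpc2, which alone ran from 79.4 to 307 over the arrays and so weighed heavily in the sum. The part of skeletal muscle in the Acta1 values was not tested.

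**Figure D2:**
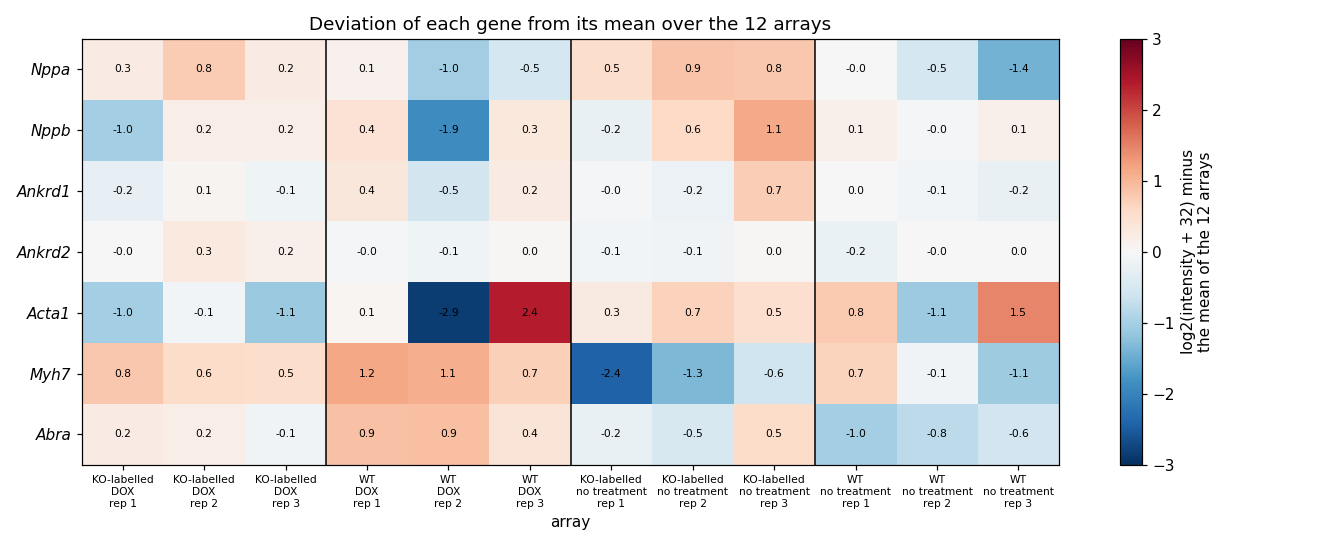
Heat map of the deviation of each of the 7 genes (rows) on each array (columns) from its mean over the 12 arrays, in log2(intensity + 32), red above and blue below the mean, with groups from left to right knockout-labelled DOX, WT DOX, knockout-labelled untreated and WT untreated. WT DOX replicate 2 is below the mean in 5 of 7 genes, down to -2.85 for Acta1, and Myh7 is below the mean on all 3 knockout-labelled untreated arrays.

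Abra read 474, 465 and 370 on the knockout-labelled DOX arrays and 760, 772 and 529 on the WT DOX arrays. It read 337, 275 and 596 on the knockout-labelled untreated arrays and 181, 218 and 256 on the WT untreated arrays. The WT DOX arrays were the high ones and the WT untreated arrays the low ones, with the knockout-labelled arrays of both treatments between them apart from the high replicate 3 without treatment. The means were 436 ± 57.5 in knockout-labelled DOX, 687 ± 137 in WT DOX, 403 ± 170 in knockout-labelled untreated and 219 ± 37.5 in WT untreated hearts (SD, n = 3 each). In the order of the means, WT DOX, knockout-labelled DOX, knockout-labelled untreated and WT untreated hearts, the middle pair overlapped and both outer steps did not. DOX gave a log2 fold change of 1.51 in WT hearts (SE 0.25, adjusted p = 0.021 from limma, higher on 3 of 3 arrays) and of 0.17 in knockout-labelled hearts (SE 0.25, adjusted p = 0.83 from limma). The genotype difference was -0.61 after DOX (SE 0.25, adjusted p = 0.28 from limma) and 0.74 without treatment (SE 0.25, adjusted p = 0.20 from limma). The interaction was -1.34 (SE 0.35) and did not pass (limma adjusted p = 0.43), so the DOX response was not shown to differ between the genotypes.

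The call of Abra in WT hearts was lost without WT DOX replicate 1 or 2 and without WT untreated replicate 2 or 3, with adjusted p-values of 0.063, 0.069, 0.070 and 0.070 from limma, while the log2 fold change stayed between 1.40 and 1.68 whichever array was left out. It was also lost with the methods' t-test after Benjamini-Hochberg adjustment (adjusted p = 0.16). Without both arrays that stood apart it was kept, with a log2 fold change of 1.42 and an adjusted p of 0.022 from limma. The genotype difference without treatment was 0.44 without knockout-labelled untreated replicate 3 (adjusted p = 0.43 from limma), the array highest in its group for Abra. Cardiomyocyte markers summed to 157339, 153793 and 182193 on the WT DOX arrays that read 760, 772 and 529 for Abra, and every WT untreated array had a sum of at least 181895. Fibroblast, macrophage and erythroid markers also moved with DOX in WT hearts. There the 8 fibroblast markers summed to 9567 to 10573 with DOX and 11137 to 14241 without. The 7 macrophage markers summed to 2631 to 3543 with DOX and 4477 to 5796 without. The erythroid sums, given beside Myh7, did not overlap either, and the median log2 fold change was -1.18 over the erythroid, -0.63 over the fibroblast and -0.63 over the macrophage markers. The part of these sums in the result was not tested.

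Ankrd1 read 7428, 9253 and 7993 on the knockout-labelled DOX arrays and 11225, 6016 and 10426 on the WT DOX arrays. It read 8496, 7812 and 14791 on the knockout-labelled untreated arrays and 8836, 8367 and 7587 on the WT untreated arrays. All groups overlapped, and knockout-labelled untreated replicate 3 was the highest array and WT DOX replicate 2 the lowest. The means were 8225 ± 934 in knockout-labelled DOX, 9222 ± 2805 in WT DOX, 10367 ± 3847 in knockout-labelled untreated and 8263 ± 631 in WT untreated hearts (SD, n = 3 each), and no neighbours in their order differed beyond their spread. The genotype difference was -0.12 after DOX (95% interval -0.72 to 0.48) and 0.27 without treatment (-0.33 to 0.87), and the DOX response was -0.28 in knockout-labelled (-0.88 to 0.32) and 0.11 in WT hearts (-0.49 to 0.71). Both values that use the knockout-labelled untreated group turned sign without its replicate 3, at 0.0076 for the DOX response and -0.018 for the genotype difference. The other Ankrd1 probe set followed the main one over the 12 arrays (Pearson r = 0.96, a description), and its log2 fold changes lay between -0.30 and 0.50 with no call.

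Ankrd2, the skeletal muscle relative of Ankrd1, read 26.7, 39.8 and 33.7 on the knockout-labelled DOX arrays and 25.8, 22.0 and 28.0 on the WT DOX arrays. It read 23.5, 23.0 and 28.4 on the knockout-labelled untreated arrays and 19.4, 26.4 and 26.8 on the WT untreated arrays. Its mean of 27.0 lay below the median intensity of every array, and the groups overlapped in every comparison. The log2 fold changes were 0.20 for the DOX response in knockout-labelled hearts (adjusted p = 0.26 from limma) and 0.19 for the genotype difference after DOX (adjusted p = 0.30 from limma), and 0.03 and 0.02 for the DOX response in WT hearts and the genotype difference without treatment. Adding 32 to values of this size shrinks their fold changes, and with 1 added the first of these was 0.39 and still did not pass.

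**Figure D3:**
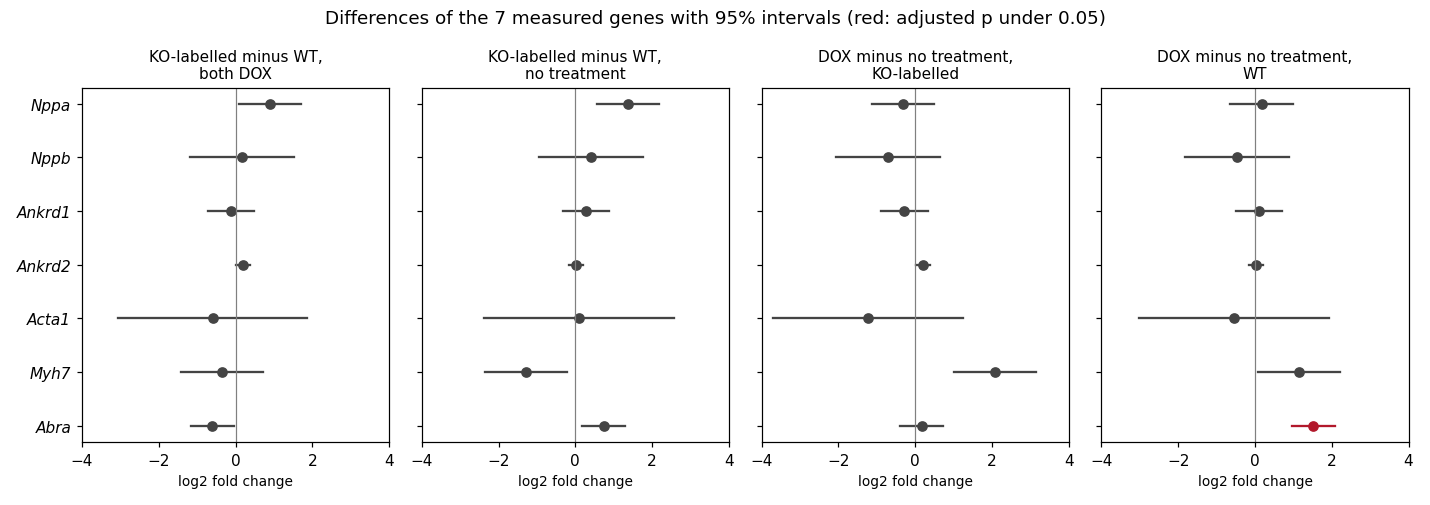
Log2 fold changes (on log2(intensity + 32)) of the 7 genes with 95% intervals from limma, in panels for the genotype difference after DOX and without treatment and for the DOX response in knockout-labelled and WT hearts. Abra in WT hearts, at 1.51, is the point in red with an adjusted p under 0.05, and the intervals of Acta1 are the widest.

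Of 10 genes that process or receive natriuretic peptides, 0 were called in any comparison by limma, and 1 of 10 lay under an unadjusted p of 0.05 for each DOX response, a share below the 18.8% of all probe sets in WT and 16.2% in knockout-labelled hearts. That gene was Corin, which encodes the protease that cuts the precursor of ANP. Corin lay between 2423 and 2803 in knockout-labelled DOX and between 1584 and 1828 in knockout-labelled untreated hearts, and between 2731 and 3082 in WT DOX and between 1474 and 2651 in WT untreated hearts. The DOX arrays were above the untreated ones in both genotypes. Its log2 fold change was 0.64 in knockout-labelled hearts (adjusted p = 0.090 from limma) and 0.56 in WT hearts (adjusted p = 0.10 from limma). Npr3, which encodes the receptor that clears the peptides from the circulation, differed by 0.02 in knockout-labelled and -0.21 in WT hearts.

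A list of 17 genes held actin, myosin, troponin and tropomyosin genes of fetal or adult muscle, along with Atp2a2 and Pln. Of these 17, 4 were called for the genotype difference without treatment, 2 higher and 2 lower. For the DOX response in knockout-labelled hearts 1 was called lower. Over all probe sets, 0.924% were called higher and 0.89% lower in that genotype difference, and 1.47% lower in that DOX response. Acta2, smooth muscle alpha-actin and an actin of the embryonic heart, averaged 9499 ± 3388 in knockout-labelled untreated and 1716 ± 375 in WT untreated hearts (SD, n = 3 each), a log2 fold change of 2.41 (adjusted p = 0.014 from limma). In knockout-labelled hearts it was lower after DOX, at 2513 ± 864 against 9499 ± 3388 without treatment (log2 fold change -1.91, adjusted p = 0.025 from limma). Actin genes are nearly identical in their coding parts, and the table gives no probe positions, so signal shared between Acta2, Acta1 and Actc1 cannot be told apart here. Tnni1, the troponin I of the fetal heart, was dim, at 32.8 ± 7.07 in knockout-labelled untreated and 18.1 ± 2.32 in WT untreated hearts (0.37 on the log2 scale, limma adjusted p = 0.030). Tnnt1, a slow skeletal troponin T, averaged 133 ± 45.1 in knockout-labelled untreated and 290 ± 7.05 in WT untreated hearts (-1.01 on the log2 scale, limma adjusted p = 0.025). Myh7b, a myosin gene related to Myh7, averaged 45.6 ± 11.0 in knockout-labelled untreated and 140 ± 24.0 in WT untreated hearts (-1.15 on the log2 scale, limma adjusted p = 0.013), which is the direction Myh7 itself took there. The fibroblast marker sums given beside Nppa were higher in the same knockout-labelled untreated hearts in which Acta2 was, and their part in that call was not tested.

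The adult partners of the 2 fetal sarcomere genes were not called. Myh6 averaged 19901 ± 875 in knockout-labelled DOX and 17318 ± 4939 in WT DOX hearts, and 21617 ± 490 in knockout-labelled untreated and 22645 ± 406 in WT untreated hearts (SD, n = 3 each). Its DOX response was -0.12 in knockout-labelled and -0.42 in WT hearts, where Myh7 had 2.08 and 1.15. The WT DOX arrays of Myh6 read 13705, 15302 and 22945 and overlapped with the WT untreated ones. As with Myh7, fold changes between values this high are not shown to be free of a ceiling of the signal. Actc1 had DOX responses of -0.26 in knockout-labelled and -0.49 in WT hearts (adjusted p = 0.32 and 0.060 from limma), with the DOX arrays below the untreated ones in both.

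Of the 22 measured genes of stretch sensing and the Z-disc, 2 were called higher and 3 lower for the DOX response in WT hearts, and 1 higher and 1 lower for that in knockout-labelled hearts. For the genotype difference 1 was called higher and 1 lower after DOX, and 0 higher and 2 lower without treatment. Over all probe sets, 1.66% were called higher and 1.4% lower for the DOX response in WT hearts. For that in knockout-labelled hearts 0.731% were called higher and 1.47% lower. The genotype difference had 0.291% called higher and 0.651% lower after DOX, and 0.924% higher and 0.89% lower without treatment. Xirp1, the relative of the missing Xirp2, averaged 618 ± 41.6 in knockout-labelled DOX and 860 ± 34.0 in WT DOX hearts, and 560 ± 44.1 in knockout-labelled untreated and 583 ± 77.7 in WT untreated hearts (SD, n = 3 each). Its WT DOX arrays stood above all others, with a DOX response of 0.54 in WT hearts (adjusted p = 0.020 from limma) and 0.13 in knockout-labelled hearts (adjusted p = 0.53 from limma), and a genotype difference after DOX of -0.46 (adjusted p = 0.049 from limma). These are the directions of Abra in the same comparisons, and the interaction of Xirp1 did not pass either (-0.41, adjusted p = 0.47 from limma).

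Fhl2, a LIM domain protein bound to titin, fell after DOX in both genotypes. It averaged 5215 ± 216 in knockout-labelled DOX and 3349 ± 450 in WT DOX hearts, and 7409 ± 156 in knockout-labelled untreated and 6143 ± 279 in WT untreated hearts (SD, n = 3 each). Its genotype difference was called after DOX (0.64, adjusted p = 0.019 from limma) and not without treatment (0.27, adjusted p = 0.14 from limma). Trim54, a ubiquitin ligase of the sarcomere also known as MURF3, rose after DOX in both, by 0.96 in knockout-labelled (adjusted p = 0.011 from limma) and 0.62 in WT hearts (adjusted p = 0.036 from limma), and was lower in knockout-labelled than in WT hearts without treatment (-0.69, adjusted p = 0.031 from limma). Casq2, the calcium store protein of the sarcoplasmic reticulum, and Nebl, a Z-disc protein that binds actin, fell in WT hearts by 0.70 and 0.48 on the log2 scale (adjusted p = 0.016 and 0.039 from limma). Ablim1, an actin-binding LIM protein, was lower in knockout-labelled than in WT hearts without treatment (-0.49, adjusted p = 0.043 from limma). Ankrd23, which with Ankrd1 and Ankrd2 makes up the muscle ankyrin repeat family, had log2 fold changes of 0.48 in both DOX responses, with SEs of 0.29 and no call.

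**Figure D4:**
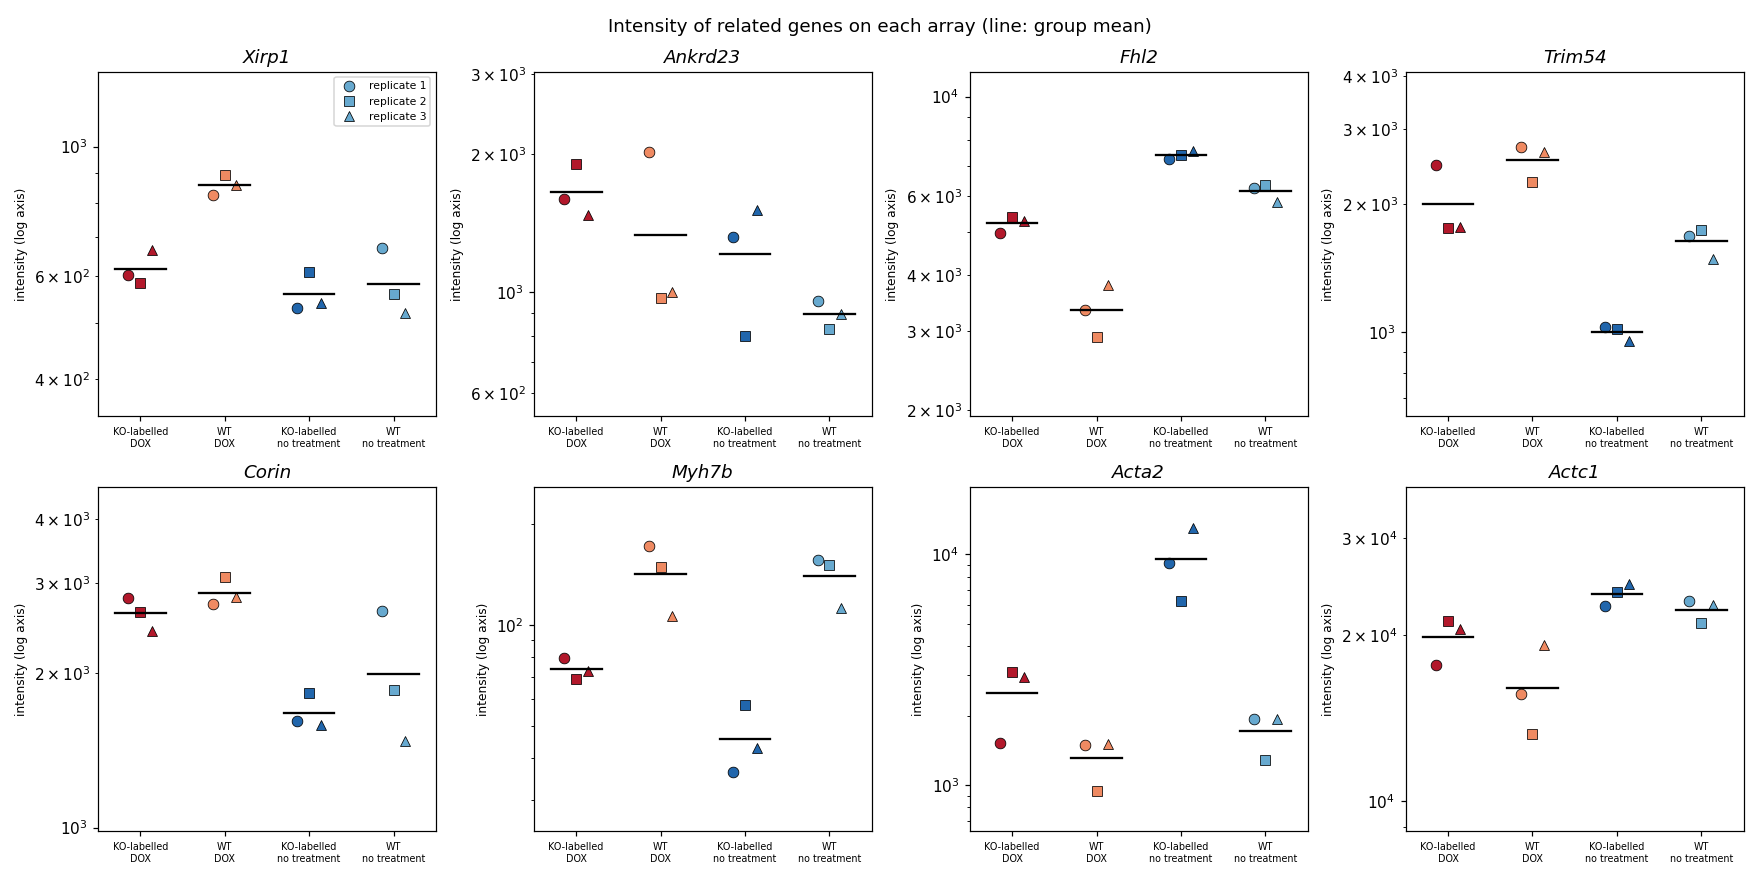
Intensity (linear values on a log axis) on each of the 12 arrays of 8 related genes, with groups from left to right knockout-labelled DOX, WT DOX, knockout-labelled untreated and WT untreated, a symbol per replicate number and a line for the group mean. Xirp1 is highest on the 3 WT DOX arrays, Fhl2 is lower and Trim54 higher after DOX in both genotypes, and Acta2 is highest on the 3 knockout-labelled untreated arrays.

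Of 22 measured transcription factors and coactivators of the fetal program, Mrtfb was the 1 called, for the DOX response in knockout-labelled hearts, where 0.731% of all probe sets were called higher. Mrtfb encodes one of the coactivators of serum response factor to which Abra signals in cultured cells, and it averaged 901 ± 102 in knockout-labelled DOX and 580 ± 30.8 in knockout-labelled untreated hearts (SD, n = 3 each), a log2 fold change of 0.61 (adjusted p = 0.028 from limma). In WT hearts it averaged 989 ± 159 with DOX and 733 ± 27.2 without (0.41, adjusted p = 0.081 from limma). Of 16 measured genes of calcineurin signalling and hypertrophy, 2 were called lower for the genotype difference after DOX, 1 for that without treatment and 1 for the DOX response in knockout-labelled hearts, where 0.651%, 0.89% and 1.47% of all probe sets were called lower. Nfatc2, a transcription factor that calcineurin activates, was lower in knockout-labelled than in WT hearts after DOX (-0.57, adjusted p = 0.040 from limma) and without treatment (-0.56, adjusted p = 0.028 from limma). Ppp3ca, a catalytic subunit of calcineurin, was lower after DOX in knockout-labelled than in WT hearts (-0.35, adjusted p = 0.038 from limma), and Camk2d, a calcium-dependent kinase, was lower after DOX in knockout-labelled hearts (-0.57, adjusted p = 0.043 from limma). The medians of these 5 lists lay between -0.21 and 0.12 in the 4 comparisons.

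To show which other genes ran most like each member, log2 values were correlated over the 12 arrays with those of 7895 other genes (7896 for Ankrd2) that had a mean intensity of at least 100. These correlations take in the group differences, share the arrays and were picked as the highest of many, so they are a description. Myh7 ran most like Usp20 (Pearson r = 0.95, Spearman correlation 0.99), a deubiquitinase gene, and Cidea (0.94, Spearman 0.97), a lipid droplet gene. Both stayed high without the 2 arrays farthest from the median of Myh7 (0.93 and 0.85). Abra ran most like the long noncoding RNA Malat1 (0.94, Spearman 0.97) and Usp16 (0.94, Spearman 0.94), with 0.95 and 0.92 without its 2 farthest arrays. Nppa ran most like Rabggtb (0.90, Spearman 0.89) and Ctsd (0.88, Spearman 0.91), with 0.75 and 0.86 without its 2 farthest arrays. Nppb ran most like Tm2d2 (0.85, Spearman 0.53) and Ndufb1 (0.84, Spearman 0.70), and without its 2 farthest arrays, on which these values rested, they were 0.38 and 0.31. Acta1 had the same genes on top (0.82, Spearman 0.68, and 0.81, Spearman 0.65), at 0.74 and 0.48 without its farthest arrays. Ankrd1 ran most like Gm9899 (0.84, Spearman 0.78) and Calr (0.83, Spearman 0.73), at 0.60 and 0.49 without its farthest arrays, and Ankrd2 most like Mark1 (0.83, Spearman 0.79) and Zap70 (0.79, Spearman 0.68), at 0.73 and 0.74.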

How the data were processed

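The authors deposited linear intensities per probe set, made with Affymetrix Expression Console per the labels; its version and summary method are not given in the sources used here. The value 32 was added to each intensity and the log2 taken. With limma 3.58.1 (R 4.3.3, eBayes without a trend), 1 mean per group was estimated from the 12 arrays together, two-sided p-values were adjusted by the Benjamini-Hochberg method over all 45037 probe sets, and calls were made at an adjusted p under 0.05. Means and SDs are of linear intensities, and fold changes are on the log2(intensity + 32) scale, which understates those of dim probe sets. The number of arrays limits the precision.

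Arrays were grouped by genotype label and treatment. The members, gene lists, markers and motifs were chosen with earlier results of these data known. Genes named from the lists are those called in any of the 4 comparisons, plus Ankrd23, Xirp1, Myh6, Actc1, Corin and Npr3; for each member the 2 most alike genes are also named. Symbols came from the annotation of the array, where 34945 probe sets name 1 gene, 932 several and 9160 none. The members were selected by these symbols. For the gene lists and markers, symbols updated by Entrez ID were accepted as well, and the correlations used the updated ones. Promoters came from RefSeq (GRCm38.p6).

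The alternatives were run for the members only: quantile normalization, 1 or 128 added, a minimum mean of 64, a trended and robust variance, the 6 arrays compared, a replicate block, the methods' t-test, 1 averaged value per gene, and leaving out each array; leaving out both arrays that stood apart was chosen after seeing the data. The fit was tested on simulated data. Tables and plots used Python 3.11.15, pandas 2.3.3 and matplotlib 3.10.9.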

Additional observations from a re-analysis of the deposited data

Results flagged for a closer look

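The genotype difference of Abra pointed opposite ways in the 2 treatments. It was -0.61 after DOX, where all 3 knockout-labelled arrays lay below all 3 WT arrays, and 0.74 without treatment, where all 3 lay above (log2 scale). The test of the difference between them, the interaction of -1.34, did not pass (adjusted p = 0.43 from limma), and of all 45037 probe sets 0 passed it.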

How the results depend on the processing

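With 3 arrays per group, members that spread as Nppb and Acta1 did have wide intervals, and Ankrd2 was too dim for its values to be firm. For the DOX response in WT hearts the count of members called was 1 and fell to 0 with the methods' t-test after Benjamini-Hochberg adjustment, and it lay between 0 and 1 as each array was left out. For the DOX response in knockout-labelled hearts the count of 0 became 1 with 1 added, with a minimum mean of 64 and with 1 averaged value per gene (Myh7 each time), 2 with the methods' t-test unadjusted (Acta1 and Myh7), and 0 to 1 as each array was left out. For the genotype difference without treatment the count of 0 became 1 with 1 added, with a minimum mean of 64 and with that t-test unadjusted (Nppa each time), and after DOX it became 1 with that t-test unadjusted (Abra). The interaction count stayed at 0 in every setting run.

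Without both arrays that stood apart, these log2 fold changes changed sign, none of them called: Nppb to 0.28 and Acta1 to 0.81 for the DOX response in WT hearts, Ankrd1 to 0.0076 for that in knockout-labelled hearts, Ankrd1 to -0.018 and Ankrd2 to -0.023 for the genotype difference without treatment, and Nppb to -0.57 for that after DOX. As each array was left out, the ranges that crossed 0 were as follows. For the DOX response in WT hearts they were -0.21 to 0.49 for Nppa, -0.88 to 0.28 for Nppb, -0.058 to 0.39 for Ankrd1, -0.036 to 0.069 for Ankrd2 and -1.79 to 0.81 for Acta1. For that in knockout-labelled hearts they were -0.45 to 0.0076 for Ankrd1 and -0.049 to 0.47 for Abra. For the genotype difference after DOX they were -0.57 to 0.59 for Nppb, -0.40 to 0.048 for Ankrd1 and -1.95 to 0.65 for Acta1, and without treatment -0.018 to 0.44 for Ankrd1, -0.042 to 0.055 for Ankrd2 and -0.65 to 0.63 for Acta1. For the interaction they were -0.98 to 0.18 for Nppb and -2.04 to 0.56 for Acta1. The cause was not tested.

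Same-numbered arrays of different groups deviated with correlations from -0.26 to 0.16, over 0.1 in 4 of 18 pairs. Differently numbered arrays were not correlated beside them, so these values cannot decide whether the numbers pair the arrays. With the replicate block the count for the DOX response in WT hearts stayed at 1, with Abra at an adjusted p of 0.038 from limma, and no other member was called.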
